A study of Macaca mulatta with 13 samples.

Results

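Slow-twitch genes of the sarcomere and of calcium handling were measured in the vastus lateralis, a thigh muscle of mixed fibre type, of 13 old male rhesus monkeys (Macaca mulatta). The 10 genes were chosen by symbol: MYL2, MYL3, TNNT1, TNNI1, TNNC1, TPM3, ATP2A2, CASQ2, CSRP3 and MYOZ2. They were read by 18 of the 52766 probe sets, where a probe set counted if the platform annotation gave it exactly 1 symbol. Genes with 1 symbol numbered 14132 in all. The 5 control animals ate a control diet and were 27 to 30 years old. The 8 CR animals, aged 27 to 32 years, had their calories restricted, for a stated 18.5 years. The labels give ages by group only, and no date or batch. RNA of each animal was read on 1 Affymetrix array in 1 colour, and the small number of arrays limits the precision. Values are log2 of the deposited signal.

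Skeletal muscle is a mixture of slow (type I) and fast (type II) fibres. Slow fibres contract slowly, resist fatigue and rely on oxidative metabolism, and fast fibres are built for rapid force. Most parts of the contractile machine exist as a slow and a fast version encoded by separate genes, and a fibre expresses mainly one version of each. Several slow versions are shared with the heart. A piece of whole muscle was measured, so fewer slow fibres and less slow-fibre RNA per fibre cannot be told apart.

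Control 4 had the lowest mean correlation with the other arrays, and CR 8 had the next lowest, close to the rest. The mean correlation of an array with the other 12 was 0.879 for control 4 and 0.90 for CR 8, against 0.906 to 0.922 for the other 11 arrays, over probe sets, which are not independent replicates. The 2% trimmed mean signal was 500 on all 13 arrays. The GAPDH and actin control probe sets, whose 3-prime over 5-prime ratio is a sign of RNA quality, gave CR 8 log2 ratios of 0.76 and 1.86, inside the range of the other animals. Control 4 had the highest actin ratio, 2.41. Control 4 was also the highest of the 13 animals for the mean level of the markers of endothelium, adipocytes, matrix and nerve and for the developmental isoforms of the sarcomere. CR 8 was the lowest for the adipocyte and smooth muscle markers. The main values of the slow genes are also given without these animals, as are several of those of other genes and lists.

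The 10 genes spread widely between animals, and the largest gap was set by 1 animal. Their within-diet SD ran from 1.16 to 1.96 on the log2 scale, with a median of 1.52, against a median of 0.45 over the 26383 probe sets tested. Ranked by that SD, the 10 genes lay between place 22 and place 792. Without CR 8 the SD still ran from 0.75 to 1.60, with a median of 1.10. Their places then ran from 98 to 4117. The fast versions of the same parts had SDs from 0.30 to 0.54, but they lie near the top of the signal scale. The 86 tested probe sets at least as bright as the dimmest fast version had a median SD of 0.34 and a highest of 0.99, and the highest log2 signal on any array was 17.51. None of the 10 slow genes was as bright on average. How far the top of the scale narrows the spread of the fast versions was not tested.

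**Figure D1:**
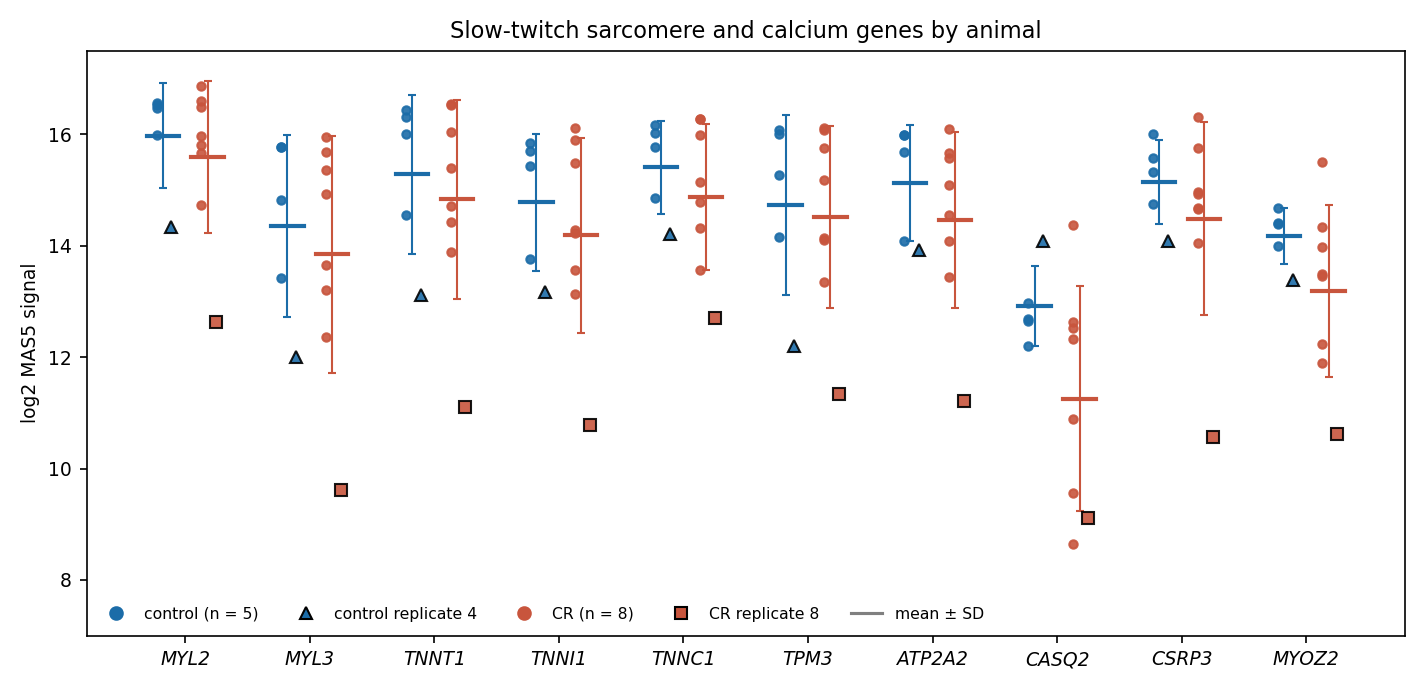
Log2 signal (vertical axis) of the brightest probe set of each of the 10 slow-twitch genes in 5 control and 8 CR animals, 1 point per animal, with bars for the mean and SD of each diet and separate symbols for control 4 and CR 8. CR 8 is the lowest of the 13 animals for 9 of the 10 genes, and the diets overlap for each gene.

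The slow myosin light chains sit on the neck of the myosin head. MYL2, the regulatory light chain of slow and ventricular muscle, had log2 signals of 16.53, 16.47, 15.98, 14.33 and 16.56 in controls 1 to 5. In CR it had a lowest value of 12.63, a median of 15.89 and a highest of 16.87. Control 4 and CR 8 were low, and the remaining animals of both diets overlapped. MYL3, the essential light chain of the same fibres, had values of 15.77, 14.81, 13.42, 12.003 and 15.77 in the controls. In CR it ran from 9.62 through a median of 14.29 to 15.95. MYL3 had the widest spread of the 10 genes: CR 8 lay 38.2-fold below the median of the other animals, and control 4 was the second lowest of the 13.

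The troponin complex on the thin filament holds contraction off until calcium binds. TNNT1, the slow subunit that anchors the complex to tropomyosin, had values of 16.30, 16.01, 14.56, 13.11 and 16.44 in the controls and, in CR, 11.11 at the lowest, 15.06 at the median and 16.55 at the highest. TNNI1, the slow inhibitory subunit, had values of 15.84, 15.42, 13.76, 13.17 and 15.70 in the controls and, in CR, 10.78, 14.26 and 16.11 for lowest, median and highest. Controls 3 and 4 lay below the other controls for both subunits, and CR 8 lay below every other animal. TNNC1, the calcium-binding subunit shared by slow and cardiac muscle, had values of 16.17, 15.77, 14.86, 14.22 and 16.02 in the controls. In CR it ran from 12.70 through 14.96 to 16.28, and CR 8 was 6.76-fold below the median of the others, the smallest such gap of the 10. TPM3, which encodes the slow tropomyosin that covers the myosin sites on actin and also non-muscle forms, had values of 16.07, 15.27, 14.15, 12.20 and 16.001 in the controls. In CR it ran from 11.34 through 14.66 to 16.11. For TPM3 control 4 and CR 8 were both far below the animals of their own diet.

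Calcium is pumped back into the sarcoplasmic reticulum after each contraction and stored there. ATP2A2, the SERCA2 pump of slow and cardiac muscle, had values of 15.98, 15.68, 14.09, 13.92 and 15.98 in the controls. In CR it ran from 11.21 through 14.82 to 16.10. The order of the animals was close to that for the troponins. CASQ2, the calcium store protein calsequestrin of slow and cardiac muscle, had another order. Its control values were 12.20, 12.64, 12.69, 14.09 and 12.97, so that control 4 was the highest control here and the lowest control for the other 9 genes. In CR it ran from 8.65 in CR 4 through a median of 11.61 to 14.37 in CR 1, and CR 8 was second lowest at 9.10. For CASQ2, 4 of the 8 CR animals lay below the lowest control and 1 lay above the highest.

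The remaining pair are proteins of the Z-disc, where neighbouring sarcomeres join. CSRP3, the muscle LIM protein, had values of 14.74, 15.58, 15.32, 14.09 and 16.01 in the controls and ran in CR from 10.56 through 14.80 to 16.31. CR 8 lay 11.2-fold below the next lowest animal, and without it the range of the other 12 was 2.26. MYOZ2, a calcineurin-binding myozenin of slow and cardiac muscle, had values of 14.00, 14.39, 14.41, 13.38 and 14.68 in the controls and ran in CR from 10.62 through 13.48 to 15.50. For MYOZ2, 3 CR animals lay below the lowest control and CR 1 lay above the highest.

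CR 8 was the lowest of the 13 animals for 9 of the 10 genes. In CR 8 each of the 10 genes was more than 4-fold below the median of the other animals, from 6.76-fold for TNNC1 to 38.2-fold for MYL3. Of the 17 member probe sets tested, 15 were that low in CR 8. Probe sets that low in CR 8 numbered 449 in all, against 146 to 435 in each other animal, so the number of low probe sets was highest in CR 8 but close to that in CR 1. At the other end, CR 1 was the highest animal for 8 genes and CR 7 for the other 2, MYL2 and MYL3. By mean rank over the 10 genes the animals ran, from low to high, CR 8, CR 4, control 4, CR 3, CR 2, CR 6, control 3, control 2, CR 5, control 1, CR 7, control 5 and CR 1. Animals of both diets were found in the lower and in the upper part of this order.

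The 10 genes varied together from animal to animal within a diet. With each diet mean removed, the correlation over the 13 animals was above 0 for 45 of 45 pairs, from 0.461 to 0.992 with a median of 0.887. In a two-sided permutation test within diets (100000 resamples), 40 of the 45 pairs passed after Benjamini-Hochberg adjustment over the 45. The lowest r that passed was 0.622, and 4.20% of the 48132766 pairs among all 9812 genes tested had an r at least as high, with a median of -0.0006 over all pairs. An r at or above the members' median was found for 0.0787% of all pairs. Without CR 8, 30 of 45 passed. The 7 genes of the myosin, troponin, tropomyosin and pump groups formed the tightest block, a subset named after the values were seen. Its 21 pairs had Pearson's r of 0.934 to 0.992 and Spearman's rho of 0.956 to 0.995, and 21 passed the permutation test, with raw p up to 2e-05 and adjusted p up to 4.29e-05, where 1e-05 is the smallest that the resamples can give. With the 2 animals farthest from the median left out, r was still 0.904 to 0.992. Without CR 8 the lowest r was 0.881 and 21 of 21 passed.

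**Figure D2:**
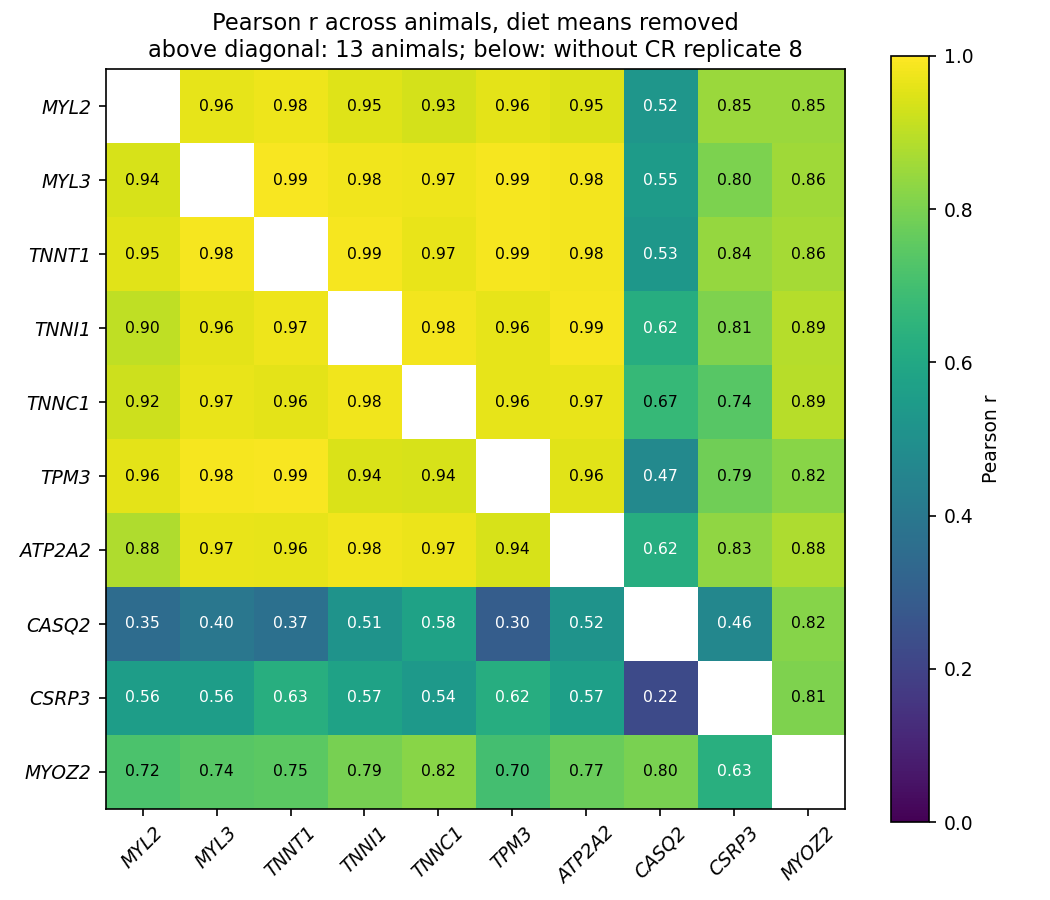
Pearson correlation between each pair of the 10 slow-twitch genes after each diet mean was removed, on a colour scale for r. Values above the diagonal are over 13 animals and those below it are without CR 8. The 7 genes from MYL2 to ATP2A2 form a block with r of 0.934 or more above the diagonal. Below the diagonal the block has r of 0.881 or more. The CASQ2 and CSRP3 pairs are lower.

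The Z-disc genes and the calcium store gene had lower correlations with these 7. MYOZ2 correlated with the 7 genes at r of 0.823 to 0.892 and rho of 0.764 to 0.863, and 7 of 7 pairs passed the permutation test (raw p 9e-05 to 0.00029, adjusted p 0.000184 to 0.000466). Without CR 8 its r was 0.701 to 0.824 and 7 of 7 passed. Without the 2 farthest animals its r was 0.703 to 0.774. CSRP3 correlated with them at r of 0.740 to 0.848 and rho of 0.593 to 0.714, with 7 of 7 pairs past the permutation test (raw p 0.00277 to 0.00519, adjusted p 0.00415 to 0.00649) and 6 of 7 by rho. Without CR 8 the r of CSRP3 with the 7 genes fell to 0.542 to 0.627 and 0 of 7 passed (permutation adjusted p 0.0604 to 0.102). Without the 2 farthest animals r was 0.333 to 0.640.

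CASQ2 correlated with the 7 genes at r of 0.469 to 0.669 and rho of 0.451 to 0.610. By Pearson's r 3 of 7 pairs passed the permutation test (raw p 0.034 to 0.125, adjusted p 0.0403 to 0.128), by rho 0 of 7, and without CR 8 0 of 7, with r then 0.295 to 0.578. Without the 2 farthest animals r was 0.290 to 0.791. CASQ2 had its highest r with MYOZ2, 0.820, with a rho of 0.808 (permutation raw p 0.00605 and adjusted p 0.00736 for r, adjusted p 0.0122 for rho). That pair had r of 0.740 without the 2 farthest animals and 0.798 without CR 8, where it also passed. CASQ2 with CSRP3 had r of 0.461 and rho of 0.192 and did not pass (permutation raw p 0.203, adjusted p 0.203).

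Where a gene had several probe sets, these were compared over the animals. Of 9 pairs of probe sets within a gene, 7 passed the same permutation test adjusted over the 9. The 2 probe sets of MYL2 had r of 0.994, those of ATP2A2 0.985, those of TNNI1 0.858 and those of TPM3 0.673, and the 3 of MYOZ2 had r of 0.925 to 0.993. The 2 probe sets of TNNT1 did not pass by Pearson's r, 0.455 (permutation p 0.118, adjusted p 0.133), but passed by rho, 0.566 (adjusted p 0.0479). The second TNNT1 probe set had a mean log2 signal of 9.07 and was tested between diets. The second of TNNI1, at 9.20, and the third of MYOZ2, at 9.23, were about as bright. The 2 probe sets of CSRP3 did not pass either, with r of 0.306 (permutation p 0.194, adjusted p 0.194). The dim CSRP3 probe set was below the limit on mean signal, 107, and was not tested between diets. The second probe set of TPM3 had a smaller gap: CR 8 lay 3.45-fold below the median of the others against 14.8-fold in the brightest. In the second probe set of TNNT1, CR 8 was not low. There the log2 signal of CR 8 minus the median of the others was 0.28, against -4.59 in the brightest. In the dim CSRP3 probe set it was -0.04. Which transcript forms the TPM3 probe sets read was not tested.

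Between diets, the 10 genes were lower on average in CR but by less than the spread between animals. The members were chosen with this difference known, so it is given as a description with no test of the members. Of the 26383 probe sets tested, 0 passed limma's moderated test with Benjamini-Hochberg adjustment, that is 0.0% called, and 2.43% had an unadjusted p under 0.05 (330 higher and 311 lower in CR). An exact rank-sum test also called 0. The means of 10 of 10 genes were lower in CR, where 51.9% of all probe sets tested were lower. The median log2 difference over the 10 genes was -0.56, against -0.01 over all probe sets tested. Without CR 8 the median was -0.10 and 6 of 10 genes were lower. Without control 4, the lowest control, the median was -0.98. Without both it was -0.50. It was -0.33 without control 1 and -0.37 without control 5.

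In the block of 7 genes the mean differences lay between -0.66 and -0.23. The log2 differences, CR minus control, with their SE over 5 control and 8 CR animals, were -0.38 ± 0.59 for MYL2 and -0.51 ± 0.92 for MYL3. For the troponins they were -0.45 ± 0.79 for TNNT1, -0.59 ± 0.75 for TNNI1 and -0.52 ± 0.55 for TNNC1. TPM3 gave -0.23 ± 0.77 and ATP2A2 gave -0.66 ± 0.67. None of these 7 exceeded its SE. Without CR 8 they lay between -0.21 and 0.22, with MYL2, MYL3, TNNT1 and TPM3 above 0.

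CASQ2 had the largest difference of the 10, -1.66 ± 0.79, a mean signal 3.17-fold lower in CR on the log2 scale. It was -1.36 without CR 8, -1.37 without control 4, -1.06 without both and -2.11 without CR 1, the highest CR animal. The 95% interval of the CASQ2 difference, before any adjustment, was -3.33 to 0.00403, and that of MYOZ2 was -2.25 to 0.29. CASQ2 is singled out for the largest of 10 differences, in genes chosen with the difference known, so its interval is no test. Both intervals were built on the moderated SE, and that of CASQ2 is narrower than the spread of CASQ2 alone would give. MYOZ2 followed with -0.98 ± 0.60, and -0.61 without CR 8. CSRP3 gave -0.66 ± 0.69, and -0.10 without CR 8. The other probe sets gave -0.21 for MYL2, -0.20 for TNNI1, -0.49 for TPM3, -0.86 for ATP2A2 and -0.97 and -1.35 for MYOZ2. The second probe set of TNNT1 went the other way, with 0.25, and so did the untested dim one of CSRP3, with 0.97. In all, 16 of the 17 tested probe sets were lower.

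**Figure D3:**
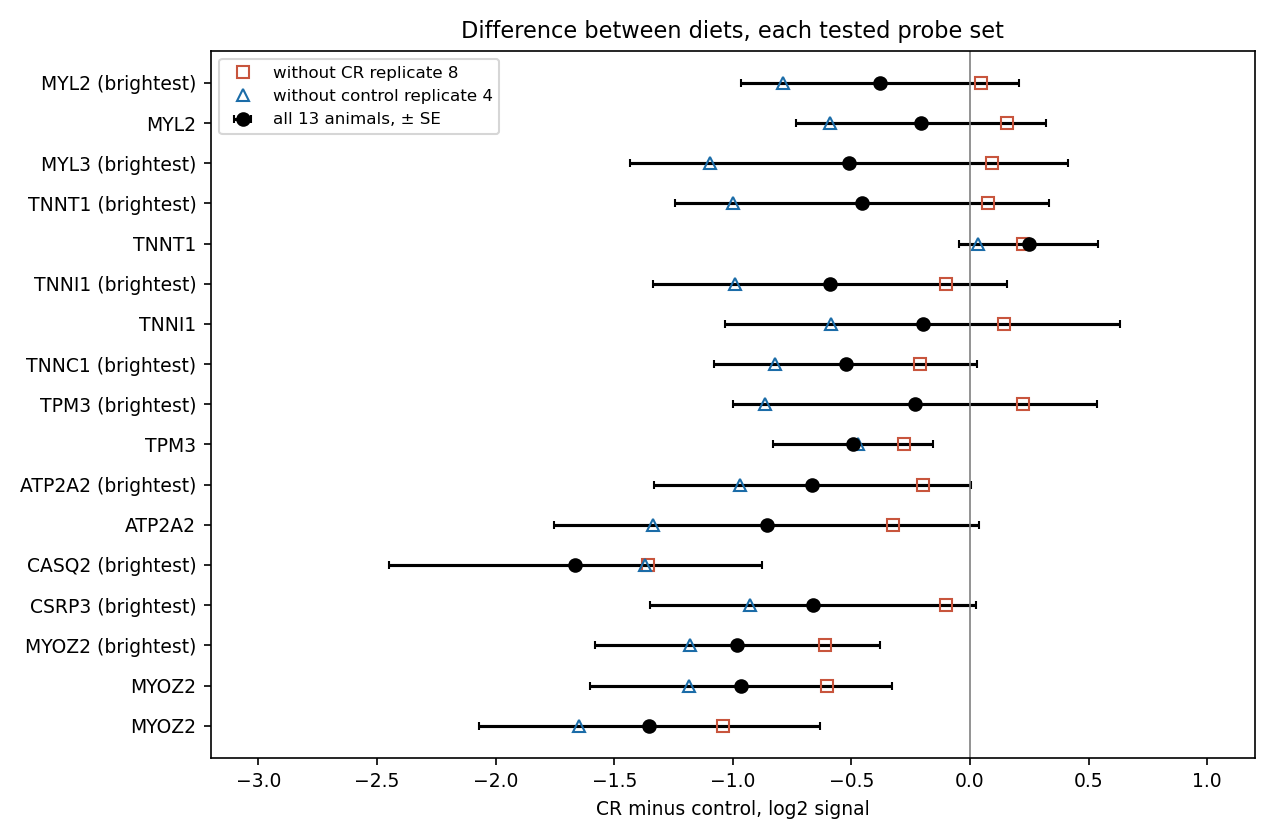
Log2 difference, CR minus control, of each of the 17 tested slow-twitch probe sets (filled points, bars for limma's moderated SE). Squares show the value without CR 8 and triangles the value without control 4. CASQ2 lies lowest at -1.66, and 4 of the 10 brightest probe sets lie above 0 without CR 8.

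No fast version of these parts was correlated with its slow counterpart past the threshold, over signals close to the top of the scale. Of the 9 fast partners 8 had a named probe set. They were MYL1 for the essential light chain MYL3, TNNT3, TNNI2 and TNNC2 for the troponins, TPM1 for tropomyosin, ATP2A1 (the SERCA1 pump), CASQ1 and MYOZ1. MYLPF had none, so MYL2 was in no pair, and CSRP3 was in no pair either. From the lowest to the highest animal the 8 partners varied by 1.97-fold to 3.42-fold. MYL3 varied 80.6-fold and TNNC1, the least variable of the 10, 12.02-fold. In CR 8, where the slow genes were lowest, the mean of the fast partners was the second highest of the 13 animals. In control 4 the slow and the fast genes were both low: the fast partners had their lowest mean there. That was not particular to these genes. Control 4 also had the lowest mean for other slow-fibre genes, for sarcomere genes shared by all fibres and for regulators of slow-fibre genes. The diet differences of the fast partners were above 0 for 8 of 8 genes, with a median of 0.27 and none called. That median was 0.17 without control 4 and 0.08 under quantile normalization.

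Pair by pair, none of the 8 slow genes with a measured fast partner correlated with it past the threshold. The 8 diet-centred r ran from -0.43 for CASQ2 with CASQ1 to 0.28 for MYL3 with MYL1, and 0 of 8 passed the permutation test adjusted over the 8. The lowest raw p was 0.125, for CASQ2 with CASQ1, where rho was -0.30 and r without the 2 farthest animals was -0.48 (permutation adjusted p 0.965). TNNT1 with TNNT3 had r of 0.06, TNNC1 with TNNC2 0.04, TPM3 with TPM1 0.11 and TNNI1 with TNNI2 -0.01. ATP2A2 with ATP2A1 had r of -0.19 and MYOZ2 with MYOZ1 -0.28. The sign of several of these depends on the scaling: under quantile normalization TNNT1 with TNNT3 was -0.38, TNNC1 with TNNC2 -0.39, MYL3 with MYL1 -0.21 and TPM3 with TPM1 -0.75 (permutation adjusted p 0.0674). TNNI1 with TNNI2 was then -0.46 and ATP2A2 with ATP2A1 -0.41, and the r of 8 of 8 pairs was below 0. Without CR 8, MYL3 with MYL1 had r of 0.62 (permutation raw p 0.0473, adjusted p 0.379).

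**Figure D4:**
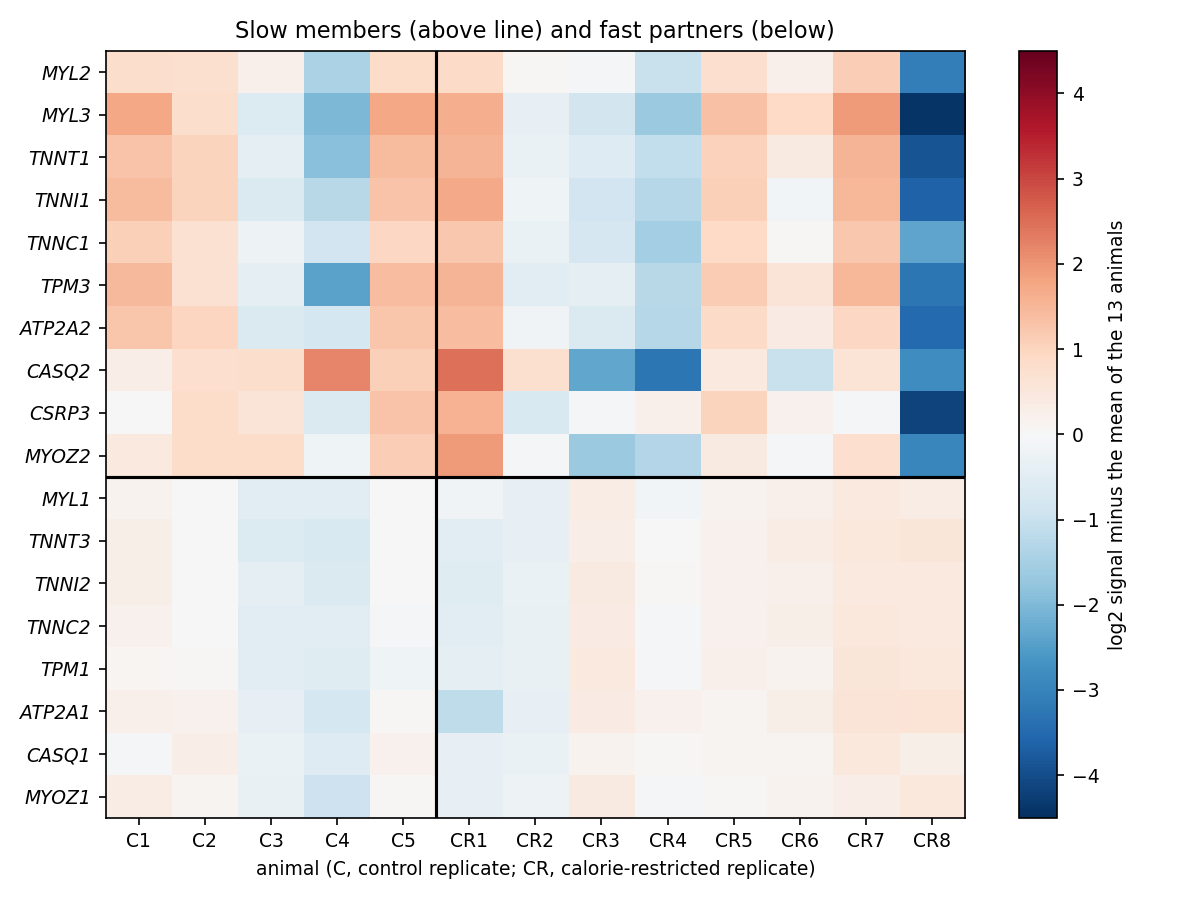
Log2 signal of the 10 slow-twitch genes (above the line) and 8 fast partners (below it) in each animal, as the colour of the difference from that gene's mean over the 13 animals, so colours compare animals within a gene. The slow genes are lowest in CR 8, control 4 is low for most of them but high for CASQ2, and the fast partners vary by at most 3.42-fold.

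The other fast-fibre genes ranged from 2.07-fold between animals for MYH2 to 112-fold for PVALB. Of 11 on the list 6 had a named probe set, with 3 higher and 3 lower in CR, a median difference of 0.02 and none called. The median was 0.44 without CR 1 (4 higher, 2 lower), -0.10 without control 4 (1 higher, 5 lower) and -0.05 without CR 8. PVALB, the calcium buffer parvalbumin, had log2 signals of 11.04, 13.78, 14.28, 12.44 and 11.87 in the controls and from 7.93 through 12.89 to 14.74 in CR. CR 1, highest for 8 of the slow genes, was the lowest for PVALB and also for ACTN3, the fast-fibre alpha-actinin, at 12.74 against 14.94 or more in every control. The r of a gene with the mean z score of the 10 slow genes, diet means removed, describes how closely it followed them over the 13 animals. That r was -0.60 for PVALB, -0.49 for ACTN3, -0.46 for MYLK2 (the skeletal myosin light chain kinase), -0.25 for MYH4 and PGAM2, and 0.22 for MYH2, the type IIA myosin. Without control 4 and CR 8, MYH4 had -0.387, MYLK2 -0.700 and MYH2 -0.003. These values moved with single animals: without CR 1 and CR 8 PVALB had -0.40 and ACTN3 0.23, and MYLK2 had -0.07 without CR 8 and -0.85 without control 4.

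Other genes known from slow fibres followed the 10 in part. All 9 with a named probe set, of 14 on the list, had r above 0, with a median of 0.652. HSPB6, a small heat shock protein, had 0.78, and ANKRD2, a stretch-responsive ankyrin protein, had 0.76. MYBPC1, the slow myosin-binding protein C, had 0.675, PDLIM1 0.655, CRYAB 0.652, FABP3, a fatty acid carrier, 0.630, MYOM3 0.627, MYH7B 0.474 and MB, myoglobin, 0.344. FABP3 had 0.311 without control 4 and CR 8, and MB had 0.627 under quantile normalization. Between diets 3 of the 9 were higher and 6 lower in CR, with a median of -0.07 (0.06 without CR 8, -0.24 without control 4) and none called. Within this group CR 8 was not the lowest animal as it was for the members: control 4 had the lowest mean and CR 8 the next. Genes of the sarcomere shared by all fibres had a median r of 0.191 over 10 genes, with ACTN2, the alpha-actinin of all fibres, highest at 0.749 and MYPN lowest at -0.342. Their diet differences were 5 higher and 5 lower, with a median of -0.01 (-0.16 without control 4, 0.01 without CR 8) and none called.

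**Figure D5:**
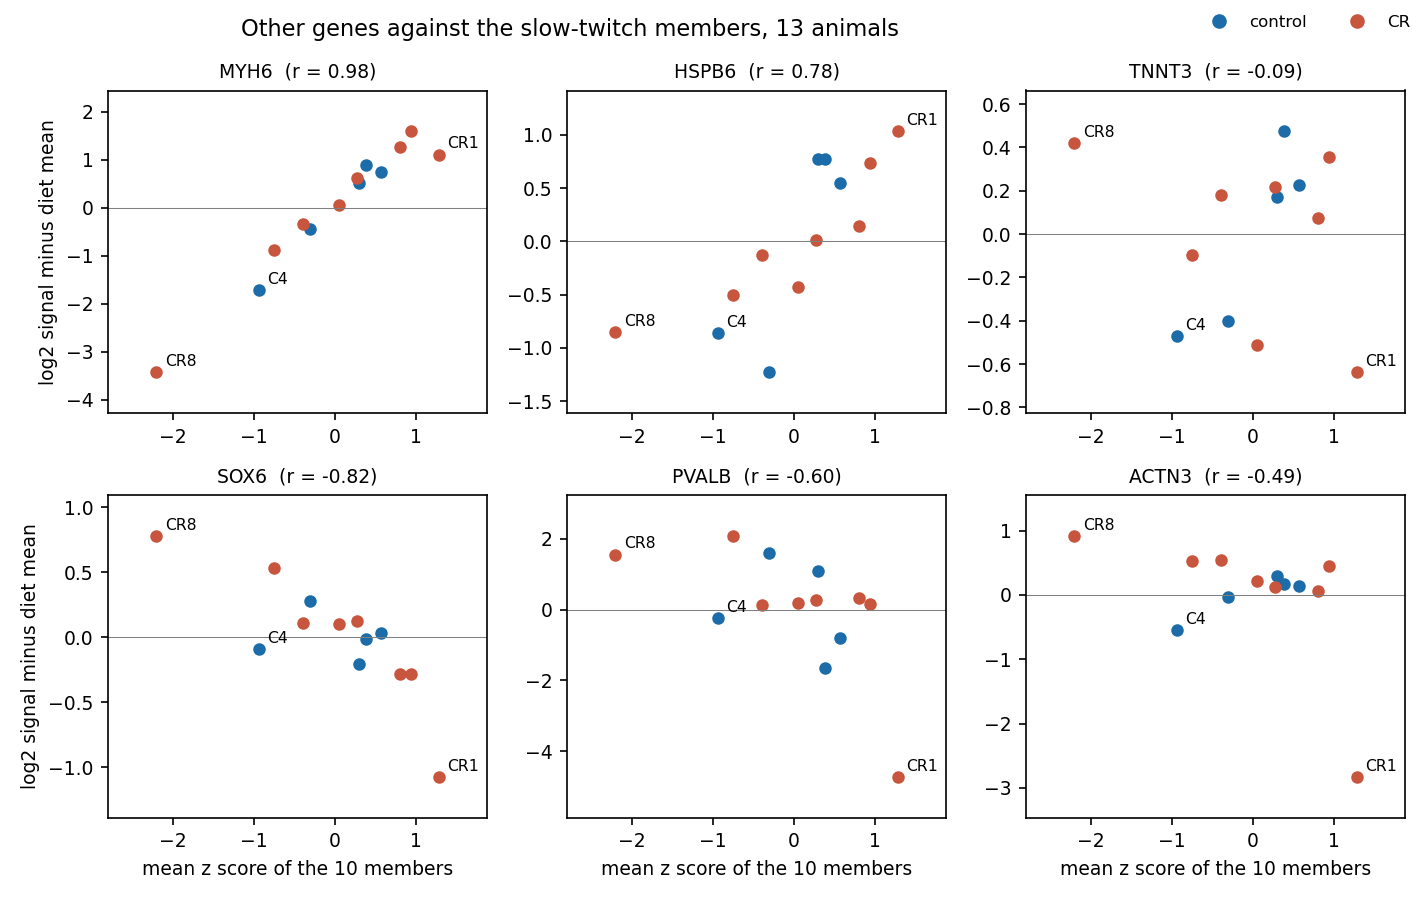
Log2 signal minus the diet mean of MYH6, HSPB6, TNNT3, SOX6, PVALB and ACTN3 (vertical axes) against the diet-centred mean z score of the 10 slow-twitch genes (horizontal axes), 1 point per animal. MYH6 rises with the slow genes (r 0.976) and SOX6 runs the other way (-0.815), while CR 1 lies far below the other animals for PVALB and ACTN3.

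Among 9802 other genes, the gene most like the 10 was a myosin heavy chain. A bright probe set that the annotation names MYH6, the alpha heavy chain known from the atria, had r of 0.976 with the mean z score, 0.949 without control 4 and CR 8, and at least 0.95 with any 1 animal left out. Its log2 signals were 16.67, 16.30, 15.35, 14.06 and 16.53 in the controls and from 11.97 in CR 8 through 15.75 to 16.999 in CR 7. The slow-fibre heavy chain MYH7 is a near-identical paralog of MYH6 and had no named probe set here, so which of the pair this probe set reads was not tested. Its diet difference was -0.38 ± 0.69, 0.11 without CR 8 and -0.80 without control 4. The 2 dimmer MYH6 probe sets had r of 0.68 and 0.67. Of the other genes listed as cardiac, NPPA ranged from 4.71 to 8.17 and RYR2 from 6.58 to 7.89 over all animals, and TNNI3 and NPPB were below the limit on mean signal.

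The other genes most like the members were LOC696935 (r 0.903), XPO4, a nuclear export receptor (0.903), GRAMD1A (0.90), TUBGCP4, a part of the microtubule nucleation complex (0.892), LOC694255 (0.887), ASF1A, a histone chaperone (0.886), and ANKFN1 (0.886). The least like were SELENOH (-0.886), NPM3 (-0.885), C8H8orf76 (-0.878) and SLC43A1, an amino acid transporter (-0.877). Under quantile normalization the r of these 11 genes kept its sign, with ASF1A lowest in size at 0.847. Without control 4 and CR 8, GRAMD1A had 0.785, SELENOH -0.775, ASF1A 0.723 and ANKFN1 0.663, and the other 7 lay at 0.816 or more in size with the same signs. These correlations share the same 13 arrays and are a description with no p.

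Of the regulators of slow-fibre genes, SOX6 lay closest to the lowest end. SOX6 is a transcription factor known as a repressor of slow-fibre genes in fast fibres. Its brightest probe set had log2 signals of 11.41, 11.22, 11.70, 11.33 and 11.45 in the controls. In CR it was lowest in CR 1, at 10.45, had a median of 11.63, and was highest in CR 8, at 12.30, the reverse of the slow genes. Its r with the mean z score was -0.82, place 14 from the lowest of 9802, with -0.72 without CR 8, -0.83 without CR 1, -0.65 without both and -0.89 without control 4. The next 2 SOX6 probe sets by signal had -0.78 and -0.71, the following 2 had -0.34 and -0.39, and the dimmest had 0.67. Between diets SOX6 differed by 0.10 ± 0.24 (-0.01 without CR 8), and was not called. Its other probe sets differed by 0.13 to 2.31, the last in the dimmest one.

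The other regulators were spread around 0. Of 21 on the list 13 had a named probe set, with 8 higher and 5 lower in CR, a median of 0.04 (-0.04 without control 4, -0.01 without CR 8) and none called, and their median r was 0.126. RCAN1, a calcineurin target and inhibitor, had 0.518, PPARGC1A, the coactivator of oxidative genes, 0.432, VGLL2 0.426, HDAC5 0.416, MEF2A 0.380, MEF2C 0.216, MEF2D 0.126, TEAD1 0.076 and PPARD -0.012. TBX15, a factor of fast fibres, had -0.265 and NFATC1, the calcineurin-driven factor of slow fibres, -0.294. Without control 4 and CR 8, NFATC1 had 0.087, PPARGC1A 0.179, HDAC5 0.184, MEF2C 0.466, TEAD1 0.282 and PPARD 0.082. PPP3CB, a catalytic subunit of calcineurin, had -0.535, but -0.24 without CR 8 and -0.85 without control 4. A gene next to a member was also close to the top, and was noticed after the values were seen: E2F8, next to CSRP3 in the RefSeq table of assembly T2T-MMU8v2.0, had r of 0.884, and 0.74 without CR 1 and CR 8. The other 11 neighbours that were tested had r from -0.256 to 0.562, the highest for CUX2 next to MYL2.

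Markers of other cell types moved with some of these animals, and their part in the results was not tested. The developmental isoforms of the sarcomere, genes of new or regrowing fibres, were lower in CR for 5 of 5 genes, with a median of -1.11, and -0.50 without control 4, which had the highest level. MYH3, the embryonic heavy chain, ranged from 10.65 to 15.09 in the controls and from 9.87 to 14.47 in CR. Endothelial markers were lower in CR for 8 of 8 genes, with a median of -0.42, and -0.22 without control 4. Their mean level was 9.17 to 10.37 in controls and 8.51 to 9.91 in CR. Adipocyte markers had a mean level of 9.36 to 12.26 in controls and 9.17 to 12.24 in CR, with 1 of 4 higher and 3 of 4 lower, and a median of -0.40 (-0.11 without control 4, -0.17 without CR 8). Matrix markers had a mean level of 11.61 to 13.72 in controls and 11.78 to 12.85 in CR, with 3 of 7 higher, and 6 of 7 without control 4. Smooth muscle markers were lower in CR for 3 of 3 genes, blood for 2 of 2 and macrophages and lymphocytes for 5 of 5. Without control 4 the lower genes numbered 3 of 3, 1 of 2 and 3 of 5, and the medians went from -0.43 to -0.13 for smooth muscle, from -0.19 to -0.02 for blood and from -0.22 to -0.04 for macrophages and lymphocytes. Their mean levels were 9.70 to 11.59, 7.45 to 10.64 and 7.95 to 9.31 in controls and 9.19 to 11.88, 7.54 to 10.72 and 7.002 to 9.54 in CR. Nerve markers were higher for 1 and lower for 2 of 3 genes (2 and 1 without control 4), and satellite cell markers higher for 3 of 3. Of the markers with a named probe set, KDR of endothelium, PAX7 of satellite cells and CHRNG of developing fibres were below the limit on mean signal. None of the marker genes tested was called, and the lists had median r with the slow genes of 0.213 for the developmental isoforms, 0.235 for endothelium, 0.067 for adipocytes and 0.044 for matrix. They were 0.295 for smooth muscle, 0.233 for blood, -0.248 for macrophages and lymphocytes, 0.012 for nerve and -0.013 for satellite cells.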

How the data were processed

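Trizol was used to extract RNA, which was labelled with biotin as cRNA for the arrays, per the labels' protocols. The authors deposited 1 linear signal intensity for each probe set and array, and the submitters' processing notes name MAS5 without a version. The table held 52865 probe sets, 99 of them controls that were removed. Signals were floored at 1 (137 values) and log2 transformed. The dimmer 50% by mean log2 signal were not tested, and the other 26383 had mean signals from 107 upwards. MAS5 scales every array to 1 trimmed mean, so a shift of most transcripts would not be seen. Of the probe sets, 24956 had 1 symbol, 361 had several and 27449 had none, and only the first were named.

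Diets were compared two-sided by limma 3.58.1 (lmFit, then eBayes with a trend; R 4.3.3) at an adjusted p of 0.05 over all probe sets tested. Each gene was read by its brightest probe set. Permutation tests of correlations used Python 3.11.15 with 100000 resamples within diets. On simulated data of 26383 probe sets for this comparison the share recovered was 4 of 67 for a 1.5-fold change, 21 of 67 for 2-fold and 53 of 66 for 4-fold, and 4 unchanged probe sets were called.

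The members and lists were chosen with earlier results of these data known. Named genes were the members, their fast partners, the 8 genes most and 4 least like the members, and every gene with a named probe set in the slow fibre, fast fibre and regulator lists. The r values with animals left out were added after the data were seen. Promoter and protein sequences were not used here. Whether the samples came from separate animals is taken from the labels, which call them biological replicates.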

Additional observations from a re-analysis of the deposited data

Results flagged for a closer look

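Each diet's values were checked for 1 animal far from the others, over the 18 member probe sets and the brightest probe set of each other gene named with a value. Of 146 groups, 10 held such an animal, where chance gives 1 in 20, about 7.3. The groups share the same 13 animals and many of these genes vary together, so 7.3 is no strict yardstick for the 10. MYL2 in control 4 had a log2 signal of 14.33, with the next control at 15.98. CSRP3 in CR 8 had 10.56, with the next CR animal at 14.05. Of the genes most like the members, TUBGCP4 had 7.48 in CR 8 with the next at 8.56, ASF1A had 8.31 with the next at 9.40, and ANKFN1 had 9.98 with the next at 12.19. ACTN3 in CR 1 had 12.74 with the next at 15.62, and PVALB in CR 1 had 7.93 with the next at 12.77. MYOM3 was high in control 5, at 10.75 against 9.15, and RCAN1 was high in CR 1, at 11.46 against 10.42. PPARD was low in CR 6, at 6.84 against 7.41. TUBGCP4, ASF1A and ANKFN1 had been chosen for following the members over these same animals.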

How the results depend on the processing

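Array weights, the 3-prime over 5-prime ratios as covariates, eBayes without trend, median centring, quantile normalization, an offset of 16, the brightest 25% of probe sets and the unfiltered table each gave 0 probe sets called between diets. With each animal left out in turn, 0 to 1 probe sets were called higher in CR (1 without control 1 and 1 without control 5) and 0 lower. Over those omissions the median difference of the members ran from -0.98 to -0.10. It was -0.58 under quantile normalization, -0.52 under median centring, -0.69 with array weights, -0.90 with the ratios as covariates and -0.45 with all probe sets of a gene averaged. Control and CR animals with the same number deviated from their diet means with correlations of -0.12, -0.20, -0.03, 0.02 and -0.10. The highest correlation of each control with any CR animal ran from 0.10 to 0.46, each time with another number. The main fit did not treat the number as a pairing, and whether arrays shared a batch was not tested. With the replicate number as a block 0 probe sets were called and the median was -0.29.

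The count of member pairs past the threshold ran from 30 to 44 over the alternatives, and that of slow and fast partner pairs stayed at 0. Signs of weak partner correlations turned, and the cause was not tested: under quantile normalization MYL3 with MYL1 was -0.21, TNNT1 with TNNT3 -0.38, TNNC1 with TNNC2 -0.39 and TPM3 with TPM1 -0.75. With diet means kept TNNT1 with TNNT3 was -0.0065 and TNNC1 with TNNC2 -0.049. TNNI1 with TNNI2 was 0.066 by rho, 0.0028 with the ratios removed and 0.081 without control 4 and CR 8. Over single omissions the lowest and highest r were -0.14 and 0.46 for TNNT1 with TNNT3, -0.10 and 0.35 for TNNC1 with TNNC2, -0.076 and 0.44 for TPM3 with TPM1, -0.20 and 0.28 for TNNI1 with TNNI2, and -0.36 and 0.13 for ATP2A2 with ATP2A1. The number of animals limits the precision: each member's diet difference had a moderated SE of 0.55 to 0.92 on the log2 scale.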
